A study of Mus musculus with 23 samples.

Results

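Krt6a, Krt6b, Krt4 and Krt15 encode 4 keratins, the proteins of the epithelial intermediate filament. They were followed over 23 Affymetrix arrays of mouse mammary epithelial cells, as the 7 probe sets whose only gene symbol was one of these names. The array carried 34945 probe sets with 1 symbol, for 18193 genes. Krt6a and Krt4 were chosen because they fell from the 9-week virgin to pregnancy. Their values in that comparison, and in others that use the same stages, are therefore given as a description without a test. Krt6b and Krt15 were taken with them as further keratins of stratified epithelium.

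Keratin filaments assemble from pairs of a type II and a type I chain, so each of these keratins needs a partner from the other family. Krt6a and Krt6b are near-identical type II keratins that pair mainly with the type I keratins Krt16 and Krt17. They are known from the hair follicle, the nail, the tongue and wounded or hyperproliferative epidermis. Krt6a is also known in the mammary gland, from the terminal end buds of the growing duct and from some luminal cells. Krt4 is the type II keratin of the upper layers of internal stratified linings such as the oesophagus, where its partner is Krt13. Krt15 is a type I keratin of the basal layer of stratified epithelia and of the stem cell region of the hair follicle. Krt5 and Krt14 mark the basal mammary layer, and Krt8 and Krt18 the luminal layer. In the mouse gene annotation (GRCm38.p6) Krt6b, Krt6a and Krt5 lie side by side, Krt4 lies between Krt76 and Krt79, and Krt15 lies between Krt13 and Krt19.

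All mice were C57BL/6 females and carried no stated transgene or treatment. Glands came from 3-week virgins, 9-week virgins, pregnant mice (day 10, day 16 and day 19) and retired breeders, whose age the labels do not give. Each was separated into cells labelled epithelial stem cells, luminal progenitor cells and mature luminal cells, except day 19, for which the mature luminal cells alone were used here. This gave 16 groups, 7 with 2 arrays (both 3-week stem and progenitor groups, all 3 groups at 9 weeks, and the day-10 stem and mature luminal groups) and 9 with 1 array. The labels do not describe how the cells were purified or whether arrays of a group came from separate animals, so each p-value reflects the spread among these arrays alone, and that spread may be technical. The series addresses how pregnancy alters these cell types.

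Values are log2 expression values as the authors deposited them, so 1 unit is a doubling of signal. The lowest and highest values on the arrays were 0 and 14.28, and array medians lay between 4.51 and 5.47. A probe set below its array's median may hold mostly background. The excess of the 3′ over the 5′ Gapdh probe sets, a sign of RNA integrity, was 0.87 to 2.72 on 21 arrays, 3.77 on the retired breeder stem array and 5.16 on the 3-week mature luminal array. Krt5 was above 10 on every stem array, but the luminal keratins Krt7, Krt8, Krt18 and Krt19 also averaged 11.45 to 13.31 on the virgin stem arrays. The progenitor arrays of days 10 and 16 had the highest means of 6 fibroblast genes, 10.93 and 11.49, against 4.16 to 10.36 elsewhere. In such bulk samples fewer cells of a type and less RNA per cell cannot be told apart.

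Krt6a was among the strongly measured genes of the virgin gland and was low in pregnancy. On the 9-week arrays (probe set 1422784_at) it read 11.64 and 8.84 in stem cells, 12.04 and 10.51 in luminal progenitors, and 12.76 and 12.32 in mature luminal cells, giving replicate 1 first. At 3 weeks it read 10.26 and 8.83 in stem cells, 12.08 and 11.65 in progenitors, and 11.05 on the 1 mature luminal array. All virgin values were above the median of their array, and stem cells held the lowest value at both ages.

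At day 10 of pregnancy Krt6a read 9.28 and 8.32 in stem cells, 3.72 in luminal progenitors, and 8.15 and 5.86 in mature luminal cells. At day 16 it read 4.15 in stem cells, 7.0 in progenitors and 1.67 in mature luminal cells, and at day 19 it read 6.84 in mature luminal cells. In retired breeders it read 9.63, 10.09 and 11.23 in the same order of cell types. Over the 9 pregnant arrays the lowest, median and highest values were 1.67, 6.84 and 9.28, and over the 14 others they were 8.83, 11.14 and 12.76. The ranges overlap through the day-10 stem cells alone, whose 9.28 lies above the lower stem values of both virgin ages. Krt6a was still above the array median on 6 of the 9 pregnant arrays, so it was lower in pregnancy but not absent from every pregnant sample.

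The mean over the 3 cell types was 11.35 at 9 weeks and 5.39 over days 10 and 16. The difference of -5.96 ± 0.54 (SE from limma) corresponds to 62.3-fold, which is not an exact fold because 3 pregnant values lay at background level. With every value below its array's median raised to that median the difference was -5.12. In each cell type it was -3.77 (stem), -5.92 (progenitor) and -8.20 (mature luminal). The other Krt6a probe sets gave -6.05 (1422783_a_at) and -5.75 (1427700_x_at), and the pairwise correlations of the 3 probe sets over the 23 arrays were 0.94 to 0.99. Across all 15378 genes tested, 7.13% passed in this comparison and 3.36% passed as lower. Krt6a was chosen on it, so nothing is read from that share.

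Krt4 had the same course with a wider spread between arrays of a group. At 9 weeks (probe set 1438394_x_at) it read 12.82 and 7.95 in stem cells, 13.30 and 10.42 in luminal progenitors, and 13.16 and 12.19 in mature luminal cells. At 3 weeks it read 12.38 and 9.30, then 13.22 and 11.84, then 11.51, in the same order. The second stem array of each virgin age stood well below the rest.

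At day 10 Krt4 read 8.34 and 6.67 in stem cells, 5.74 in luminal progenitors, and 9.79 and 7.81 in mature luminal cells. At day 16 it read 4.38, 7.37 and 5.56 in stem, progenitor and mature luminal cells, and at day 19 it read 7.12 in mature luminal cells. In retired breeders it read 9.08, 9.20 and 10.37. The pregnant arrays ran from 4.38 over a median of 7.12 to 9.79, and the others from 7.95 over 11.68 to 13.30. The ranges overlap between 7.95 and 9.79, and 8 of 9 pregnant arrays were above their median.

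The Krt4 mean over cell types was 11.64 at 9 weeks and 6.56 over days 10 and 16, a difference of -5.08 ± 0.84, or 33.8-fold. This too is no exact fold, since the day-16 stem value lay below its array's median. With low values raised to the median the difference was -4.98. It was -4.44 in stem cells, -5.31 in progenitors and -5.50 in mature luminal cells. The other Krt4 probe set (1418735_at, correlation 0.98 with the first over the 23 arrays) gave -5.53.

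The replicate number in the array titles bears on the size of both falls. Arrays with the same number deviated together from their group means over all genes, so the numbers were treated as pairs. At 9 weeks and at day 10, stem and mature luminal cells each have an array of both numbers. Day 10 minus 9 weeks for Krt6a in stem cells was -2.36 between the replicate 1 arrays and -0.52 between the replicate 2 arrays, and in mature luminal cells it was -4.61 and -6.46. For Krt4 the same differences were -4.48 and -1.28 in stem cells and -3.37 and -4.38 in mature luminal cells. All 8 were below 0, and in stem cells the replicate 2 difference was the smaller for both genes. Averaged over the 2 cell types within replicate 1, the fall was -3.49 for Krt6a and -3.93 for Krt4. Over replicate 2 and unnumbered arrays, which include the day-10 progenitor array and day 16, it was -5.44 and -3.93. With the number as a block, the falls were -3.49 and -3.38 over the numbered groups of 2, which hold day 10 but not day 16, and -5.49 and -4.28 over all arrays. In every block over all arrays the unnumbered arrays were counted as replicate 2, which the labels do not state.

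**Figure D1:**
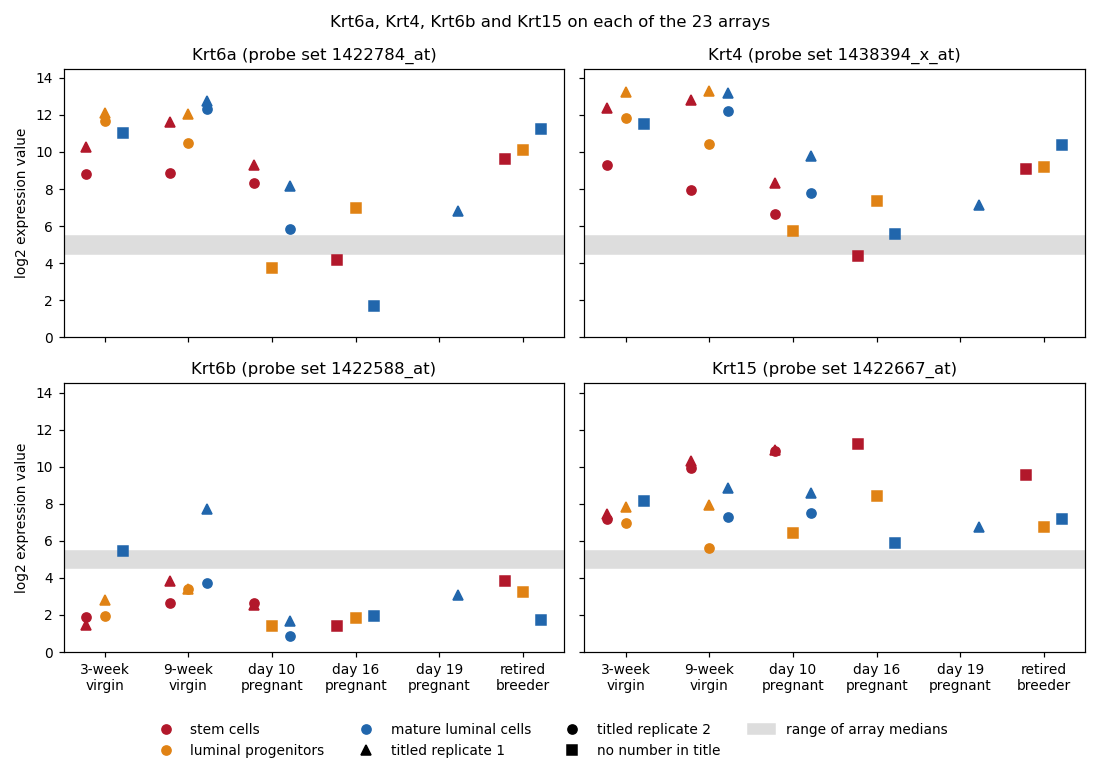
Log2 expression value (y axis) of Krt6a, Krt4, Krt6b and Krt15 on each of the 23 arrays, by stage (x axis), with 1 point per array, colours for the cell type, shapes for the replicate number and a grey band for the range of array medians (4.51 to 5.47). Krt6a and Krt4 sit lower at days 10 to 19 than in virgins and retired breeders, Krt6b is at or below the band on all but 1 array, and Krt15 is highest in stem cells from 9 weeks on.

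Ordered by group mean, the 9 groups from virgins and retired breeders all lay above the 7 pregnant groups for both genes. For Krt6a the order from the top was 9-week mature luminal (12.54), 3-week progenitor (11.87), 9-week progenitor (11.28), retired mature luminal (11.23), 3-week mature luminal (11.05), 9-week stem (10.24), retired progenitor (10.09), retired stem (9.63) and 3-week stem (9.55). The pregnant groups followed with day-10 stem (8.80), day-10 mature luminal (7.01), day-16 progenitor (7.0), day-19 mature luminal (6.84), day-16 stem (4.15), day-10 progenitor (3.72) and day-16 mature luminal (1.67). The pooled SD of the groups with 2 arrays was 1.16, and 3 of the 15 steps between neighbours exceeded it. Those were the steps below day-10 stem, below day-19 mature luminal and below day-10 progenitor, so the step from the non-pregnant to the pregnant groups was within the spread between arrays.

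For Krt4 the upper groups ran from 9-week mature luminal cells (12.68) and 3-week progenitors (12.53) through 9-week progenitors (11.86), 3-week mature luminal (11.51), 3-week stem (10.84), 9-week stem (10.39), retired mature luminal (10.37) and retired progenitors (9.20) to retired stem cells (9.08). The pregnant groups ran from day-10 mature luminal cells (8.80) through day-10 stem (7.51), day-16 progenitors (7.37), day-19 mature luminal (7.12), day-10 progenitors (5.74) and day-16 mature luminal (5.56) to day-16 stem cells (4.38). None of the 15 steps exceeded the pooled SD of 1.91. Mature luminal cells at 9 weeks led both orders, but the lowest group differed between the genes. The other Krt6a probe sets also put all 9 groups above the 7, and the other Krt4 probe set did so for 8 of the 9.

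Krt6b was barely measured. It was above its array's median on 1 of 23 arrays and above the 40th percentile on 2, and it entered the fit through those 2. They were the 9-week mature luminal replicate 1 array (7.71) and the 3-week mature luminal array (5.45). Krt5, the basal keratin encoded in the same cluster, read 11.81 and 11.17 on these 2 arrays and 5.67 to 9.30 on the other 6 mature luminal arrays. The part of basal cells in the Krt6b values was not tested. Elsewhere Krt6b read 1.46 to 3.86 on the virgin and retired breeder arrays, and 0.85 to 3.08 on the pregnant arrays, where the groups overlap at background level.

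The fitted difference of Krt6b between pregnancy and 9 weeks was -2.37 ± 0.61 (means 1.75 and 4.12; adjusted p = 0.0377, limma with Benjamini-Hochberg adjustment over 15378 genes). It gives no support for a fall in pregnancy, since the gene was in the fit because of its virgin mature luminal values. With values below the array median raised to it the difference was -0.50 (adjusted p = 0.443). The adjusted p also rose to 0.0531 to 0.0957 without any 1 of 13 arrays: both 3-week stem, both 3-week progenitor, both 9-week progenitor and both day-10 stem arrays, replicate 1 of 9-week stem and mature luminal cells, day-10 mature luminal replicate 2, and the day-10 progenitor and day-16 stem arrays. The 3-week arrays among these have no part in the comparison. Without any 1 of them the difference stayed at -2.37, and only its spread and adjustment moved. In mature luminal cells alone the difference was -4.08 (adjusted p = 0.0672, where 2.25% of genes passed). With the replicate block it was -4.43 over the numbered groups of 2 (adjusted p = 0.0235, 3.43% passing) and -3.86 over all arrays (adjusted p = 0.0216, 7.23% passing). Because Krt6b shares most of its sequence with Krt6a, some of its signal could also come from Krt6a transcripts. That was not tested. On the 3-week progenitor arrays Krt6b read 2.79 and 1.94 where Krt6a read 12.08 and 11.65.

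Krt15 differed from the other keratins of the set: it was measured above the median on all 23 arrays, did not fall in pregnancy, and was highest in the stem fraction. Its 9-week values were 10.29 and 9.92 in stem cells, 7.94 and 5.59 in luminal progenitors, and 8.84 and 7.27 in mature luminal cells. At day 10 they were 10.90 and 10.87 in stem cells, 6.45 in progenitors, and 8.58 and 7.48 in mature luminal cells. At day 16 they were 11.21, 8.42 and 5.87, and at day 19 the mature luminal value was 6.75. In retired breeders they were 9.53, 6.75 and 7.16. From 9 weeks on, every stem value (9.53 to 11.21) was above every value of the luminal fractions (5.59 to 8.84).

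Averaged over the 5 stages that had all 3 cell types, Krt15 differed between luminal progenitors and stem cells by -2.66 (progenitor minus stem, SE 0.43, 95% interval -3.59 to -1.72, adjusted p = 0.00829, limma), or 6.31-fold lower in progenitors. It was also lower in mature luminal than in stem cells, with a difference of -2.36 ± 0.43 (interval -3.29 to -1.42, adjusted p = 0.00544), or 5.12-fold. In these comparisons 4.38% and 8.34% of all genes passed. Mature luminal cells and progenitors differed by 0.30 (interval -0.66 to 1.27), which did not pass. The 3 basal keratins, Krt5, Krt14 and Krt17, were lower in both luminal fractions, 3 of 3 in each comparison. Their differences from stem cells were -3.19, -1.90 and -2.66 in progenitors (adjusted p = 0.0259, 0.017 and 0.0165) and -2.90, -1.43 and -2.41 in mature luminal cells (adjusted p = 0.0235, 0.0347 and 0.014).

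The Krt15 calls leaned on particular stages, and leaving out the only array of a group removed its stage from the comparison. Without the day-10 and day-16 progenitor arrays, which carried the highest fibroblast values, the progenitor difference was -2.02 (adjusted p = 0.059). Leaving out either the day-16 stem or the day-16 mature luminal array removed day 16 from the mature luminal comparison. Both gave the same difference of -1.61 (adjusted p = 0.073 and 0.071). In 3-week and retired stages alone the differences were -1.36 (adjusted p = 0.569) and -0.77 (adjusted p = 0.853). Within replicate 1 the 2 differences were -1.0 and -1.89 over 4 arrays each, and over replicate 2 and unnumbered arrays they were -2.91 and -2.55 over 10 arrays each. All of these kept the direction. Without the 3-week mature luminal and retired stem arrays the progenitor comparison lost the retired stage, and the difference was -2.63 (adjusted p = 0.0139). The mature luminal comparison lost the 3-week and retired stages, and the difference was -3.42 (adjusted p = 0.00175). At 3 weeks the mature luminal value (8.16) was above the stem mean (7.32).

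The 3-week gland stood apart for Krt15. Its stem cells read 7.47 and 7.17, within the 6.94 to 8.16 of the 3-week luminal arrays, while the 9-week stem arrays read 10.29 and 9.92. The difference in stem cells was -2.79 ± 0.78 (interval -4.49 to -1.08, unadjusted p = 0.00398 and adjusted p = 0.489, limma), a comparison added after the values were seen. It did not pass over all genes, where 0% passed and 831 had an unadjusted p under 0.05. With the replicate block the adjusted p was 0.0626 over the numbered groups of 2 and 0.0702 over all arrays, where 0.208% of genes passed in either fit. The replicate 1 arrays differed by -2.82 and the replicate 2 arrays by -2.75. Compared with the change of mature luminal cells between the same ages, the stem change was lower by 2.89 (difference -2.89, interval -5.58 to -0.20, adjusted p = 0.982), a comparison in which 0% of genes passed and 748 had an unadjusted p under 0.05 (limma). The other basal keratins gave smaller differences in the same stem arrays, -1.32 for Krt5, -0.74 for Krt14 and -1.92 for Krt17, none of which passed.

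Marker levels moved with this difference. The mean of 6 endothelial genes was 10.94 to 11.46 on the 3-week stem arrays and 9.54 to 9.59 on the 9-week stem arrays. The mean of 10 basal and myoepithelial genes was 9.94 to 11.18 and 10.70 to 12.49. Their part in the Krt15 difference was not tested.

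Over all cell types Krt15 changed little with stage, and no stage comparison passed. Pregnancy minus 9 weeks was 0.17 ± 0.43 (interval -0.77 to 1.11, adjusted p = 0.843), and 3 weeks minus 9 weeks was -0.69 (interval -1.75 to 0.37), where 0.176% of genes passed. In the single cell types pregnancy minus 9 weeks was 0.94 in stem cells, 0.67 in progenitors and -1.11 in mature luminal cells, against 0.26%, 0.156% and 2.25% of genes passing there. The difference between the stem and the mature luminal change was 2.05 (interval -0.21 to 4.30, adjusted p = 0.892, 0.013% of genes passing). Retired breeders minus 9 weeks was -0.50 (interval -1.70 to 0.71, 0.0065% of genes passing) and minus pregnancy -0.66 (interval -1.84 to 0.51, 1.53% passing). The order of group means had day-16 stem (11.21), day-10 stem (10.89), 9-week stem (10.11) and retired stem cells (9.53) at the top. The step to the next group, day-16 progenitors (8.42), was the 1 step of 15 that exceeded the pooled SD of 0.85. Day-16 mature luminal cells (5.87) were lowest.

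For Krt6a and Krt4 the cell type comparisons were not used to choose the genes. Krt6a differed by 0.32 ± 0.53 between progenitors and stem cells (interval -0.84 to 1.48), by 0.23 ± 0.53 between mature luminal and stem cells (interval -0.93 to 1.39), and by -0.09 ± 0.55 between the luminal fractions (interval -1.29 to 1.11). Krt4 differed by 0.90 ± 0.83 (interval -0.91 to 2.71), 1.35 ± 0.83 (interval -0.47 to 3.16) and 0.44 (interval -1.43 to 2.31) in the same order. None of the 6 passed, and for Krt6b none of the 3 passed (differences -0.11, 0.67 and 0.77). Of 15378 genes, 0.124% passed between the luminal fractions. The Krt6a averages join stages of opposite direction. Its mature luminal mean was above the stem mean at 9 weeks (12.54 against 10.24), at 3 weeks and in retired breeders. It was below the stem mean at day 10 (7.01 against 8.80) and day 16 (1.67 against 4.15). Progenitors were below stem cells at day 10 (3.72) and above them at day 16 (7.0). These stage values are a description without a test. Without the 3-week mature luminal and retired stem arrays, which had the largest Gapdh 3′ excess, both of those stages leave the mature luminal comparison. Over 9 weeks, day 10 and day 16 the Krt6a difference between mature luminal and stem cells was -0.66 and did not pass either. The change of sign therefore goes with the loss of 2 stages and cannot be set down to RNA integrity.

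Fits that pair arrays by number, some of them over fewer stages, changed 2 of these calls. Krt4 was higher in mature luminal than in stem cells by 1.59 with the block over all arrays (adjusted p = 0.014, 19.7% of genes passing) and by 1.79 over the numbered groups of 2 (adjusted p = 0.0349, 10.3% passing). Krt6a was higher in progenitors than in stem cells by 1.68 over the numbered groups of 2 (adjusted p = 0.00958, 11.3% passing), which leave out days 16 and 19 and the retired breeders, but by 0.46 over all arrays (adjusted p = 0.338, 14.4% passing). The Krt4 difference was 0.90 within replicate 1 and 2.01 over replicate 2 and unnumbered arrays. The Krt6a difference was 1.11 and 0.64.

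**Figure D2:**
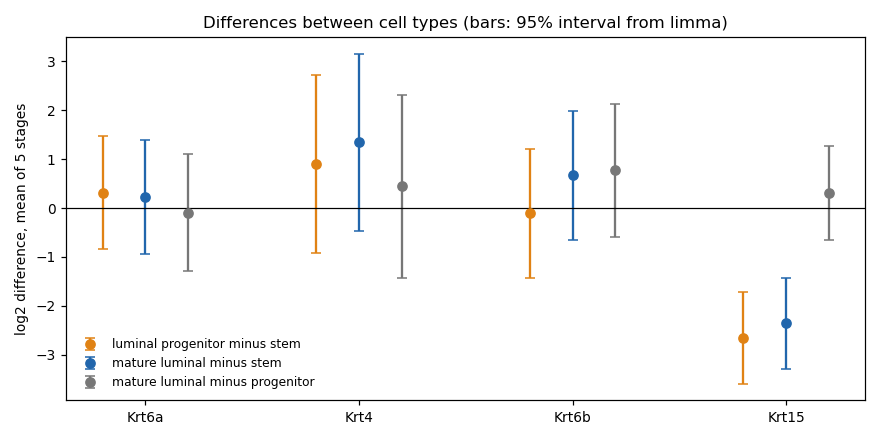
Log2 difference between cell types (y axis), averaged over 5 stages, for each of the 4 keratins (x axis), with bars for the 95% interval from limma. Krt15 lies below 0 in both comparisons with stem cells (-2.66 and -2.36), and the intervals of Krt6a, Krt4 and Krt6b all include 0.

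Retired breeders were compared with 3-week virgins, which are stages that did not enter the choice of Krt6a and Krt4. Krt6a differed by -0.50 ± 0.72 (interval -2.08 to 1.07, adjusted p = 0.897), and its retired values of 9.63 to 11.23 lay inside the 3-week range of 8.83 to 12.08. Krt4 was lower on average by 2.08 on the log2 scale (difference -2.08 ± 1.13, interval -4.54 to 0.39, adjusted p = 0.698). Its retired values, 9.08 to 10.37, overlapped the 3-week range of 9.30 to 13.22. Krt6b and Krt15 differed by -0.23 and 0.19. None of the 4 passed, and 0.0195% of all genes did. Without the 3-week mature luminal and retired stem arrays, which had the largest Gapdh 3′ excess, progenitors alone remain to be compared, and the differences were -1.78 for Krt6a and -3.33 for Krt4 (adjusted p = 0.999 for both).

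Differences within a group ran with the replicate number. Replicate 1 exceeded replicate 2 in 7 of 7 groups for Krt6a, Krt4 and Krt15. The mean difference was 1.41 ± 0.28 for Krt6a (adjusted p = 0.00266), 2.40 ± 0.37 for Krt4 (adjusted p = 0.000759) and 0.94 ± 0.29 for Krt15 (adjusted p = 0.0245), by limma with the arrays paired by group. Krt6b was higher in 4 of 7 groups by 0.90 ± 0.51 (adjusted p = 0.196). This comparison was added after the values were seen, and 31.8% of all genes passed it, so a call is common here.

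The gap was widest in 9-week stem cells, 2.80 for Krt6a and 4.87 for Krt4, and narrowest for Krt6a in 3-week progenitors (0.43) and for Krt4 in 9-week mature luminal cells (0.97). On the 9-week stem arrays the mean of the luminal keratins was also higher in replicate 1, 13.31 against 11.45, as was that of 22 stratified epithelium genes, 8.72 against 7.50. Among 29 other keratins in the fit 7 were higher in replicate 1 and 0 were lower, with a median of 0.58. Of all genes, 14.9% were higher and 16.9% were lower. The higher keratins were Krt16 (2.09), the partner of Krt6a, the luminal keratins Krt7 (1.60), Krt19 (1.04) and Krt18 (0.74), the basal keratin Krt5 (1.58), Krt86 (1.98) and Krt1 (1.75). Of the 21 stratified epithelium genes in the fit, 12 were higher and 0 were lower. The 4 leukocyte genes did not move one way. Of these, 3 were lower, with Ptprc, the pan-leukocyte antigen, at -2.95, while the macrophage gene Cd68 was higher by 1.20 (adjusted p = 0.00468, higher in 7 of 7 groups). Of the 4 mature luminal genes in the fit 0 were higher and 0 were lower, with a median of -0.18. Of the 10 basal and myoepithelial genes 1 was higher and 3 were lower. The part of leukocyte, luminal or basal content in the keratin differences was not tested.

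**Figure D3:**
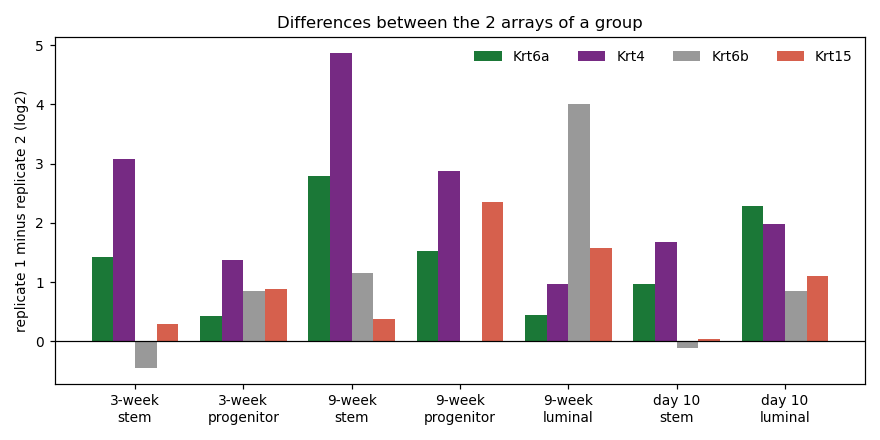
Replicate 1 minus replicate 2 on the log2 scale (y axis) in each of the 7 groups with 2 arrays (x axis), with 1 bar per keratin. The bars of Krt6a, Krt4 and Krt15 are above 0 in all 7 groups, and the largest is that of Krt4 in 9-week stem cells (4.87).

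Of the 22 other keratins in the fit (neither basal, simple luminal nor of the set), 1 was higher in pregnancy than at 9 weeks and 2 were lower, where 3.77% and 3.36% of all genes were, and their median difference was -0.66 against 0.10 over all genes. Krt23 was the higher one (2.07, adjusted p = 0.00302), and it ran from 6.03 to 8.45 at 9 weeks and from 7.39 to 10.82 at days 10 and 16. The lower ones were Krt78 (-2.81, adjusted p = 0.0254) and Krt79 (-2.71, adjusted p = 0.019), type II keratins, the second a neighbour of Krt4 in the genome. Krt78 ran from 5.60 to 10.11 at 9 weeks and from 5.20 to 7.28 in pregnancy, with overlap through the replicate 2 stem array. None of the 3 basal keratins passed (median 0.07), and none of the 4 luminal keratins did (median -0.53), Krt7 being lowest with -1.65 (adjusted p = 0.0947).

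**Figure D4:**
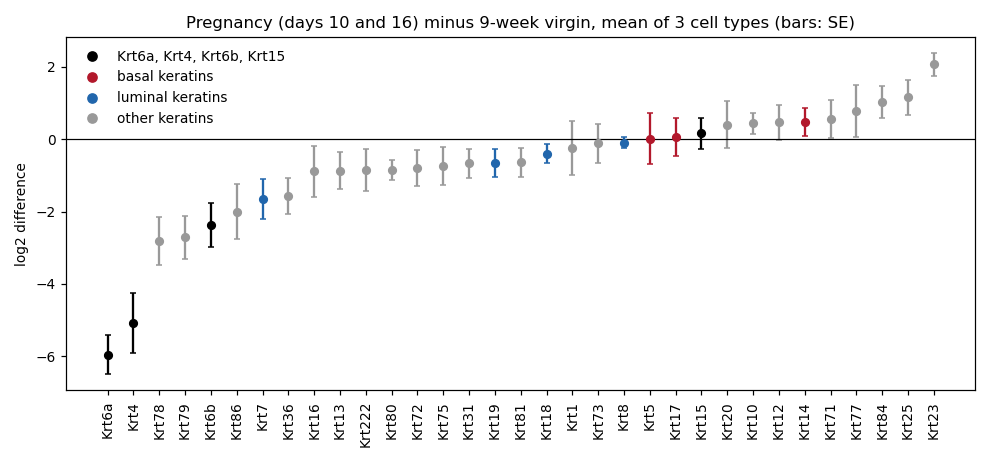
Log2 difference between pregnancy (days 10 and 16) and 9-week virgin (y axis), as the mean of 3 cell types with bars for the SE from limma, for Krt6a, Krt4, Krt6b, Krt15 and the other keratins in the fit (x axis). Krt6a (-5.96) and Krt4 (-5.08), chosen for this difference, lie farthest below 0, and Krt23 (2.07) lies farthest above it.

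Of the usual filament partners of Krt6a, neither passed in this comparison. Krt16 was above the array median on 23 of 23 arrays (7.38 to 11.59) and differed by -0.89 in pregnancy, which did not pass (adjusted p = 0.46). Krt17 differed by 0.07 (adjusted p = 0.957). Krt13, the partner of Krt4 in mucosa, was above the median on 1 of 23 arrays and reached 4.89 at most, so it was at background level in virgin and pregnant glands alike.

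Genes of stratified epithelium (junction, cornified envelope and surface proteins) were lower in part. Of 21 in the fit, 4 were lower in pregnancy and 0 were higher, against 3.36% and 3.77% of all genes, with a median of -0.75. Ly6d, a surface protein of stratified epithelium and some luminal cells, fell by 4.32 on the log2 scale (adjusted p = 0.00419). Sprr1a, a cornified envelope precursor, fell by 3.20 (adjusted p = 0.00676). The desmosome genes Dsc2 and Dsp fell by 1.65 and 1.45 (adjusted p = 0.00901 and 0.00498). Of 8 skin and hair genes, 1 to 4 were above the array median on each array. Krt10 was above it on 23 of 23 arrays (6.30 to 8.34) and Lor, a cornified envelope protein, on 19 (up to 8.54). Krt1 was above it on 4, and Flg and Dsg1a on 0, with Flg reaching 2.22 at most.

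Several marker lists moved in the same comparison. The mature luminal list held 6 genes, of which Prlr and Ly6a had no probe set with that symbol alone and were not assessed. The 4 in the fit were all lower in pregnancy (median -3.15, where 3.36% of all genes were lower): the hormone receptors Esr1 (-2.37) and Pgr (-3.68), the transcription factor Foxa1 (-2.62) and the transcriptional co-regulator Cited1 (-3.77). All 4 were higher in retired breeders than in pregnancy (median 3.18, where 1.31% of all genes were higher). The list mean was 5.73 to 9.13 on the pregnant arrays and 9.15 to 11.82 at 9 weeks. The luminal keratins, by contrast, averaged 11.78 to 13.44 on the pregnant arrays and 11.45 to 13.71 at 9 weeks. Milk protein genes were higher in pregnancy, 5 of 5 (median 5.96), as were 4 of 10 basal and myoepithelial genes (median 1.81), where 3.77% of all genes were higher. Of the 6 endothelial genes none passed, but in stem cells their median difference was -3.45, and their mean was 5.60 to 6.93 on the pregnant stem arrays against 9.54 to 9.59 at 9 weeks. The fibroblast mean of the pregnant progenitor arrays was 10.93 and 11.49 against 7.94 and 8.04 at 9 weeks. Without those 2 arrays the comparison holds stem and mature luminal cells alone, and the falls were -5.98 for Krt6a and -4.97 for Krt4. These values cannot bear on the fall in progenitors, which they leave out. Whether these marker differences reflect cell content or RNA per cell cannot be told apart here, and their part in the falls was not tested.

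The genes whose 16 group means were most like those of Krt6a, by Pearson correlation, were Tapt1 (0.974), Spire1 (0.972), Wfdc2 (0.964), Gclc (0.957) and D5Ertd579e (0.952), and Krt4 itself had 0.923. Those most like Krt4 were Apc (0.968), Akirin1 (0.953), Slk (0.942), Wfdc2 (0.938) and Slc12a2 (0.935), so Wfdc2, a secreted epithelial protein, stood in both lists. Those most like Krt15 were Col7a1 (0.948), Krt17 (0.940), Col17a1 (0.938), Tafa5 (0.933) and Artn (0.931). Col7a1 and Col17a1 encode collagens that anchor basal epithelial cells to the basement membrane. For Krt6b they were Csta1 (0.881), Kcnip4 (0.877), Mon2 (0.860), 2310015A10Rik (0.791) and Galnt9 (0.789), with most Krt6b values at background level. Krt15 was hardly correlated with Krt6a (0.075). These correlations describe groups that share stages and cell types, 9 of them with 1 array.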

How the data were processed

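The authors deposited 1 table of log2 expression values for 45101 probe sets on 23 Affymetrix arrays. Their range gives the log2 scale. Tools for probe summary and array normalization were not given in the sources used here. Precision is limited by the number of arrays. Per the labels' protocols, mRNA was made into biotinylated cRNA. Probe sets with 1 gene symbol were kept, and each gene took its probe set with the highest mean. Of 18193 genes, 15378 were above the 40th percentile of the array on at least 2 arrays. Values were fitted with limma 3.58.1 (R 4.3.3), with 1 mean per group over all 16 groups and an intensity trend in eBayes (7 residual and 4.743 prior degrees of freedom), and p-values were Benjamini-Hochberg adjusted over all genes, with a threshold of 0.05. Groups of 1 array enter as assumed to vary like the others. Cell types were averaged over 5 stages and stages over 3 cell types, with days 10 and 16 averaged as pregnancy. Replicate numbers come from the titles, and 8 arrays have none. The block over all arrays counted these 8 as replicate 2, which the labels do not state. Deviations from the group mean correlated between same-numbered arrays in all 21 pairs of groups (0.303 to 0.682, median 0.47), so the numbers were taken as pairs. No 2 arrays shared over 1.48% of their values. The members and gene lists were chosen with earlier results of these data known. Named genes are the 4 keratins, for each the 5 genes most correlated over group means, and list members that passed, at most 4 by smallest p. Partner keratins, the skin genes, Krt7, Cd68 and Ptprc were named after their values were seen. Alternatives were quantile scaling, no filter, raising low values to the array median, the replicate block, eBayes without trend, other probe sets, stages not used in the choice, and leaving out arrays. The fit was tested on simulated data.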

Additional observations from a re-analysis of the deposited data

How the results depend on the processing

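Of 1103 values recomputed under alternatives for 34 results, 1076 kept their side of the threshold (or, for the untested falls, stayed within 1 SD). This count does not measure stability. Of the 32 tested results 3 passed in the main fit, so most of the 1076 did not pass before or after. Each result also counts 23 fits without 1 array, some of them without an array that has no part in its comparison. Of the called results 0 reversed. A difference that did not pass could change sign and still count among the 1076. The Krt6a difference between mature luminal and stem cells did so, from 0.23 to -0.66 without the 3-week mature luminal and retired stem arrays. Both of those stages then left the comparison. With the replicate block, pairing arrays by number, Krt6a in progenitors minus stem cells was 0.46 over all arrays. Over the numbered groups of 2 it was 1.68, from virgin stages alone. The fall of Krt6a was -3.49 over those groups, which hold fewer stages. Krt4 in mature luminal minus stem cells was 1.79 there and 1.59 over all arrays. The block changed no other call except that of Krt6b in mature luminal cells. That call gives no support for a fall, since Krt6b entered the fit through virgin arrays of that cell type. Krt15 minus stem cells in the stages not used in the choice was -1.36 for progenitors and -0.77 for mature luminal cells, and -2.02 for progenitors without the day-10 and day-16 progenitor arrays (chosen after seeing the data). These comparisons use fewer arrays and hold no pregnant stage. Leaving out 1 array at a time moved the Krt15 mature luminal difference between -3.15 and -1.61, the fall of Krt6a between -6.51 and -5.07 and that of Krt4 between -5.89 and -4.27. Where the array was the only one of its group, its stage left a cell type comparison with it. Quantile scaling shifted the median of all genes by -0.16 in the comparison of 3 with 9 weeks, by 0.11 between progenitors and stem cells and by -0.11 between retired breeders and 9 weeks. The Krt6b values lie mostly at background and set no level. With 9 of 16 groups on 1 array, the spread of day 16, day 19 and the retired breeders was not measured.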
